A study of Mus musculus with 74 samples.

Results

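Mouse embryonic stem (ES) cells in which endogenous Nanog was activated for 3 days in the absence of LIF (−LIF +Dox) were compared by RNA-seq with the same cells kept in LIF without activation (+LIF −Dox), to ask how far Nanog stands in for the cytokine. The comparison rests on 6 libraries, 3 per condition, out of 35 libraries in the RNA-seq tables and 74 samples in the series. They were chosen by their labels alone, as all libraries of cells with the Nanog guide RNA and no other guide in these conditions. The cells derive from the E14Tg2a line. They carry the rtTA trans-activator and a PiggyBac SunTag cassette in which a Tetracycline Responsive Element drives dCas9 with a peptide array and antibody fragments fused to the VP64 activator, so that doxycycline (Dox, 1 µg/mL) switches the activator on and the guide brings it to the Nanog promoter. The +LIF −Dox cells carry the same cassette and guide, and were grown with 10 ng/mL LIF in medium with serum. A single Nanog-guide line was picked from each of 2 parental SunTag clones, C1 and C2. There was 1 library of C1 and a pair of C2 in +LIF −Dox, and a pair of C1 (C1-1 and C1-1b) and 1 of C2 in −LIF +Dox. Values of single libraries are given in this order throughout. LIF and Dox change together in this comparison, so an effect of Dox or of the activator itself and one of Nanog cannot be told apart in it, and nothing in the labels says that libraries of 1 clone came from separate cultures. In the column names, all libraries of these cells with LIF are lettered G and all without LIF are lettered H. The labels do not say what the letters stand for. A difference between these sets and one of LIF cannot be told apart.

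LIF binds a receptor formed by Lifr and gp130 (Il6st), and the kinases bound to it phosphorylate Stat3, which enters the nucleus and activates genes such as Socs3, an inhibitor of the same pathway, and Klf4. Nanog, Esrrb, Tfcp2l1, Klf4 and other transcription factors of the naive state hold ES cells in self-renewal, and loss of LIF in serum lets the cells pass towards a formative state marked by Otx2, Fgf5 and Dnmt3b and then differentiate. Forced Nanog has long been known to let ES cells self-renew without LIF.

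The guide came into the parental clones on a PiggyBac vector that also carries a puromycin resistance gene. Its sequence is shown because it fixes where the activator was placed, with its target in lower case and the adjacent PAM in capitals.

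Nanog guide: cttcccactagagatcgccaGGG

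The 20 bases of the guide match chromosome 6 of mm9 from 122657269 to 122657288 on the plus strand, and end 219 bases upstream of the annotated start of Nanog, in the promoter and outside the transcribed part of the gene.

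The estimated counts of the 6 libraries summed to between 10937367 and 70450383, the lowest being the C1 library of +LIF −Dox. That library stood apart. The SD of its log2 differences to the C2 libraries of its own condition was 1.07 and 1.06, against 0.594 between the C2 libraries and at most 0.675 within −LIF +Dox. Its deviations from the mean of all Nanog SunTag libraries correlated across genes with GC content at −0.346, against 0.257 and 0.179 for the C2 libraries, as a description over 15580 genes that are not independent. Longer transcripts also stood higher in the −LIF +Dox libraries (0.225 to 0.234) than in the +LIF −Dox libraries (−0.283 to −0.0302). The −LIF −Dox libraries stood at 0.153 to 0.235. Counts were therefore also taken without the C1 library of +LIF −Dox and with an offset for GC content and length. Core ES cell genes were expressed in all conditions, also where cells had neither LIF nor Dox, so their sum does not tell self-renewing cells from cells that leave this state. It ran over 14 genes from 186939 to 211090 normalised counts (estimated counts divided by the size factor of each library) in +LIF −Dox, from 156158 to 174303 in −LIF +Dox and from 149739 to 168145 in −LIF −Dox.

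Nanog itself (ENSMUSG00000012396, chromosome 6 of mm9, 122657507 to 122664651, plus strand) had 29487, 23345 and 21940.5 normalised counts in the +LIF −Dox libraries and 54732, 55641 and 45041 in the −LIF +Dox libraries. All 3 libraries with Dox lay above all 3 with LIF. The means differed by 2.08-fold, a difference of 1.06 ± 0.36 on the log2 scale (± standard error, as for every fold change given here) and an adjusted p of 0.0461 by the quasi-likelihood test of edgeR, with p-values adjusted over all genes by the Benjamini-Hochberg method. Without LIF and Dox, Nanog stood at 7032, 8484 and 2234, so that Dox in the absence of LIF raised it by 3.16 ± 0.39 on the log2 scale (adjusted p = 0.000899). Nanog therefore lay at 208% of its level in LIF with Dox and at 23.7% without it. The excess over the LIF level is close to the threshold. It lost the call in 8 of 11 fits that each left out 1 library. Their log2 fold changes ran from 0.97 to 1.19, and the highest adjusted p, 0.135, came without the C2-2 library of +LIF −Dox.

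Of 15624 genes tested, 4386 (28.1%) differed between the conditions, 2345 (15%) higher and 2041 (13.1%) lower with Nanog in place of LIF. The median log2 fold change of all genes was −0.04, that of the called genes 1.20 and −1.20 in each direction, and 1435 of the higher and 1240 of the lower genes differed by over 2-fold. Among the 11238 genes not called, 6289 had a 95% interval of the difference within 2-fold, and for the others a difference of 2-fold or more could not be detected or set aside with these libraries. Without the C1 library of +LIF −Dox, 6756 genes were called, and without the C2-2 library of the same condition 2635. Of the libraries with Nanog, leaving out C1-1 gave 2888 and C1-1b 2726, and without C2-1 of +LIF −Dox the count was 2954.

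What LIF withdrawal alone does was read from other libraries, so that no sample is shared. In cells that carry an Otx2 guide beside the Nanog guide, kept without Dox, 3934 of 15609 genes (25.2%) fell and 3834 (24.6%) rose after LIF withdrawal. These are called LIF-dependent and LIF-restrained genes below. Of 3841 LIF-dependent genes tested in both, 1375 (35.8%) were lower with Nanog in place of LIF than with LIF, 88 (2.29%) were higher, and 2378 were not called, 1377 of them with an interval within 2-fold. Of 3710 LIF-restrained genes, 1522 (41.0%) were higher than with LIF, 11 (0.296%) were lower, and 2177 were not called, 1210 within 2-fold. The median log2 fold change of the LIF-dependent genes was −0.51 with Nanog in place of LIF and −0.88 without LIF and Dox in the same cells, and that of the LIF-restrained genes 0.61 and 0.93. So 2897 genes stayed short of the LIF level on the side to which withdrawal takes them, and 99 lay past it. When the 2 classes were instead taken from LIF withdrawal in the Nanog SunTag cells, which share their libraries with LIF with the comparison, 18 genes lay past it.

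**Figure D1:**
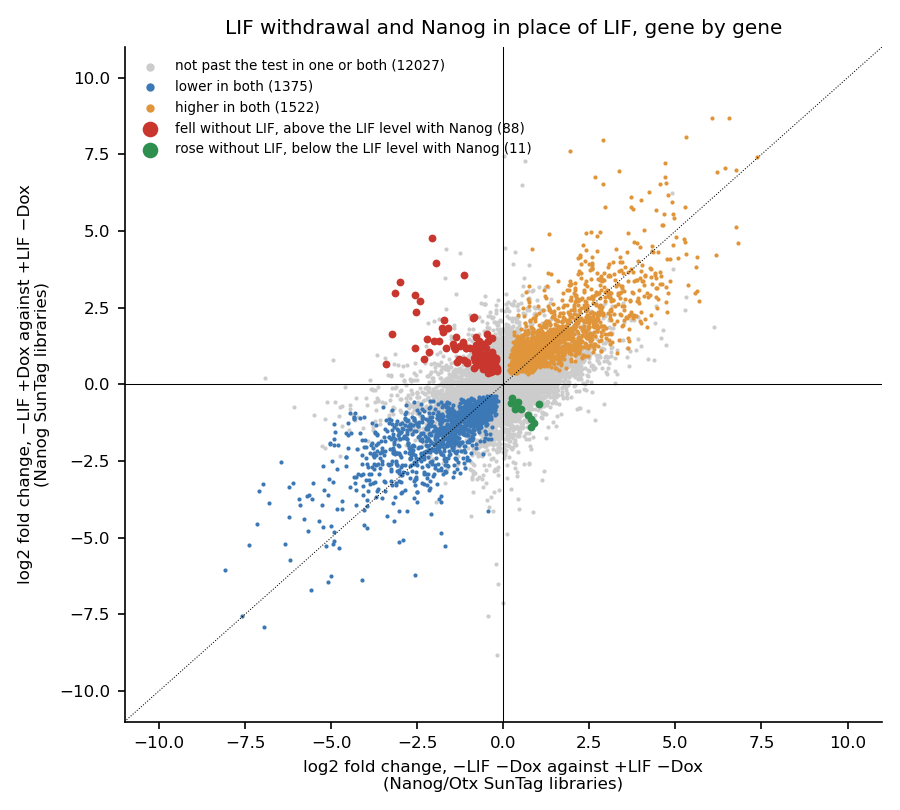
Each point is 1 of 15023 genes tested in both, with its log2 fold change after LIF withdrawal without Dox in Nanog/Otx SunTag cells on the x axis and with Nanog in place of LIF in Nanog SunTag cells on the y axis. The dotted line marks equal change. The 1375 blue and 1522 orange genes differ from LIF in the direction of withdrawal, while 88 red and 11 green genes lie on the opposite side of the LIF level.

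Several genes of the LIF pathway stayed far below the LIF level, among them Socs3 and Stat3 itself. A gene was tested where every library of at least 1 condition held 10 normalised counts or more, so list members that are low in all conditions are not counted. Of 21 genes of the LIF receptor and JAK-STAT3 pathway 19 were tested, and 8 were lower and 2 higher with Nanog in place of LIF (8 and 5 without the C1 library of +LIF −Dox), with a median of −0.35, where 13.1% of all genes were lower. The other 9 members tested, further feedback inhibitors of the pathway among them, were not called. Socs3 (chromosome 11 of mm9, 117827393 to 117831361), the feedback inhibitor that Stat3 induces, had 2356, 4719 and 4197 normalised counts with LIF and 35.1, 48.0 and 24.4 with Nanog, a log2 fold change of −6.69 ± 0.35 (adjusted p = 1.68e-06). It stood at 0.954% of the LIF level with Nanog and at 1.66% without Dox. Stat3, whose protein also activates its own gene, had 2386, 2658 and 2581 and 533, 549 and 565, so that it lay at 21.6% of the LIF level (−2.20 ± 0.13, adjusted p = 4.5e-06) and at 18.8% without Dox. Its libraries hardly varied within either condition. Bcl3, a nuclear IκB family protein, fell from 289, 1017 and 849 to 34.7, 19.7 and 19.0, and was at 3.40% of the LIF level (−4.82 ± 0.45, adjusted p = 4.63e-05). The survival kinases Pim1 and Pim3 were at 40.4% and 22.3% of the LIF level, and Junb, an AP-1 subunit, at 25.2%. None of these 6 genes passed the test of Dox without LIF, in which 562 genes (3.6%) rose and 241 (1.54%) fell.

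The receptor genes did not share this pattern. Lifr had 4638, 3009 and 2980.1 normalised counts with LIF, 2355, 2188 and 2109 with Nanog and 489, 800.1 and 568 without LIF and Dox, so that Dox raised it from 17.5% to 62.6% of the LIF level (1.87 ± 0.22, adjusted p = 0.000742). Il6st had 1923, 1499 and 1448 with LIF and 2235, 2351 and 1869.5 with Nanog, groups that overlap (0.42 ± 0.17, adjusted p = 0.0956), and was also raised by Dox without LIF (1.16 ± 0.18, adjusted p = 0.00336). Il6ra, the receptor chain for the related cytokine IL-6, stood at 24.1, 26.8 and 25.0 and 87.7, 46.3 and 53.3, at a low level but above LIF in every library (1.32 ± 0.45, adjusted p = 0.0468). With LIF and Dox it reached 224 and 69.1. Ptpn11, a phosphatase that couples the receptor to ERK, rose to 159.6% of the LIF level. The calls of Lifr and Il6ra were lost in at least 1 fit without 1 library, with adjusted p up to 0.113 and 0.168. With a replicate block for the clone Il6ra missed the threshold (adjusted p = 0.0737).

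Naive pluripotency factors were higher with Dox than without it in the absence of LIF, but mostly not at the LIF level. Of 20 factors, 14 were lower than with LIF and none was higher, with a median log2 fold change of −1.25 against −0.04 for all genes, of which 13.1% were lower. The same numbers held without the C1 library of +LIF −Dox, with Mybl2 called lower and Nr0b1 no longer called. In the test of Dox without LIF, 19 of the 20 rose. Their summed level was 151762 to 168693 normalised counts with LIF, 63946 to 79405 with Nanog and 20151 to 26551 without LIF and Dox. The distance that remained differed widely from gene to gene.

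Klf4, Klf2, Jam2, Tbx3 and Tfcp2l1 stayed furthest below. Klf4, a Krüppel-like factor and direct Stat3 target, had 3449, 4217 and 4234 normalised counts with LIF, 410.3, 369 and 533 with Nanog and 67.6, 87.9 and 102 without LIF and Dox. The groups were well separated, and Klf4 rose with Dox (2.39 ± 0.20, adjusted p = 7e-05) yet ended at 11% of the LIF level (−3.17 ± 0.20, adjusted p = 6.13e-06). Klf2, its paralogue, had 3304, 2913 and 3534 with LIF and 453, 375 and 277 with Nanog (−3.13 ± 0.29, adjusted p = 4.57e-05). Tfcp2l1, a factor that links LIF to self-renewal, had 9634, 10104 and 12948 and 1727, 1456 and 1983, which is 15.8% of the LIF level (−2.65 ± 0.22, adjusted p = 2.25e-05). Tbx3 was at 15.7% of the LIF level, the adhesion molecule Jam2 at 8.13%, Tcl1, a co-activator of Akt, at 17.6%, Gbx2, a homeobox factor downstream of Stat3, at 21.7% and Fbxo15 at 22.9%, and all of these passed the test.

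Esrrb (chromosome 12 of mm9, 87702067 to 87862578), an orphan nuclear receptor and a main target of Nanog, came closer. It had 14784, 19406 and 21159 normalised counts with LIF, 6677, 5889 and 5980.0 with Nanog and 533, 852 and 644 without LIF and Dox. Dox raised it from 3.66% to 33.5% of the LIF level (3.23 ± 0.20, adjusted p = 3.03e-05), and what remained was a log2 fold change of −1.56 ± 0.18 (adjusted p = 0.000196). Zfp42 (Rex1), a zinc finger gene used as a marker of the naive state, had 23743, 19448 and 20455 with LIF and 11752, 11377 and 9733 with Nanog. This is 51.6% of the LIF level, from 6.11% without Dox. The orphan receptors Nr0b1 (47.4% of the LIF level) and Nr5a2 (37.7%), Prdm14 (46.2%), a repressor of Fgf signalling and DNA methylation genes, and Dppa5a (46.2%) were lower as well. Of these 4, the calls of Nr0b1, Nr5a2 and Prdm14 were lost in at least 1 fit without 1 library (adjusted p up to 0.151, 0.0721 and 0.0961), and those of Nr0b1, Prdm14 and Dppa5a with the offset for GC content and length.

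Klf5, Tet2 and Fgf4 had levels with Nanog that overlapped those with LIF. Klf5 (chromosome 14 of mm9, 99697910 to 99712624), another Krüppel-like factor, had 2139, 3604 and 3020.0 normalised counts with LIF, 4082, 3104 and 3489.7 with Nanog and 498, 605 and 565 without LIF and Dox. Its level with Nanog was 122% of that with LIF, with a log2 fold change of 0.30 ± 0.19, a 95% interval of −0.12 to 0.71 and an adjusted p of 0.259. With the offset for GC content and length the log2 fold change of Klf5 was 0.64 and was called higher. Tet2, an enzyme that oxidises methylated cytosine, had 8676, 4873 and 4765 and 6514, 5788 and 4089.7, against 600.1, 1091 and 508 without LIF and Dox. The difference from LIF was −0.16 ± 0.31 on the log2 scale, with an interval of −0.83 to 0.52 and an adjusted p of 0.731. For Fgf4, the main Fgf ligand of ES cells, the values were 6724, 4398 and 5019 and 6510.3, 6807 and 5205, and the interval of the difference was −0.27 to 0.67. The surface marker Pecam1 (interval −1.12 to 0.15), the cell cycle factor Mybl2 (−1.10 to −0.15) and the maternal gene Dppa3 (−0.87 to 2.76) were not called either, and Dppa3 varied from 150.0, 20.1 and 49.9 within +LIF −Dox.

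**Figure D2:**
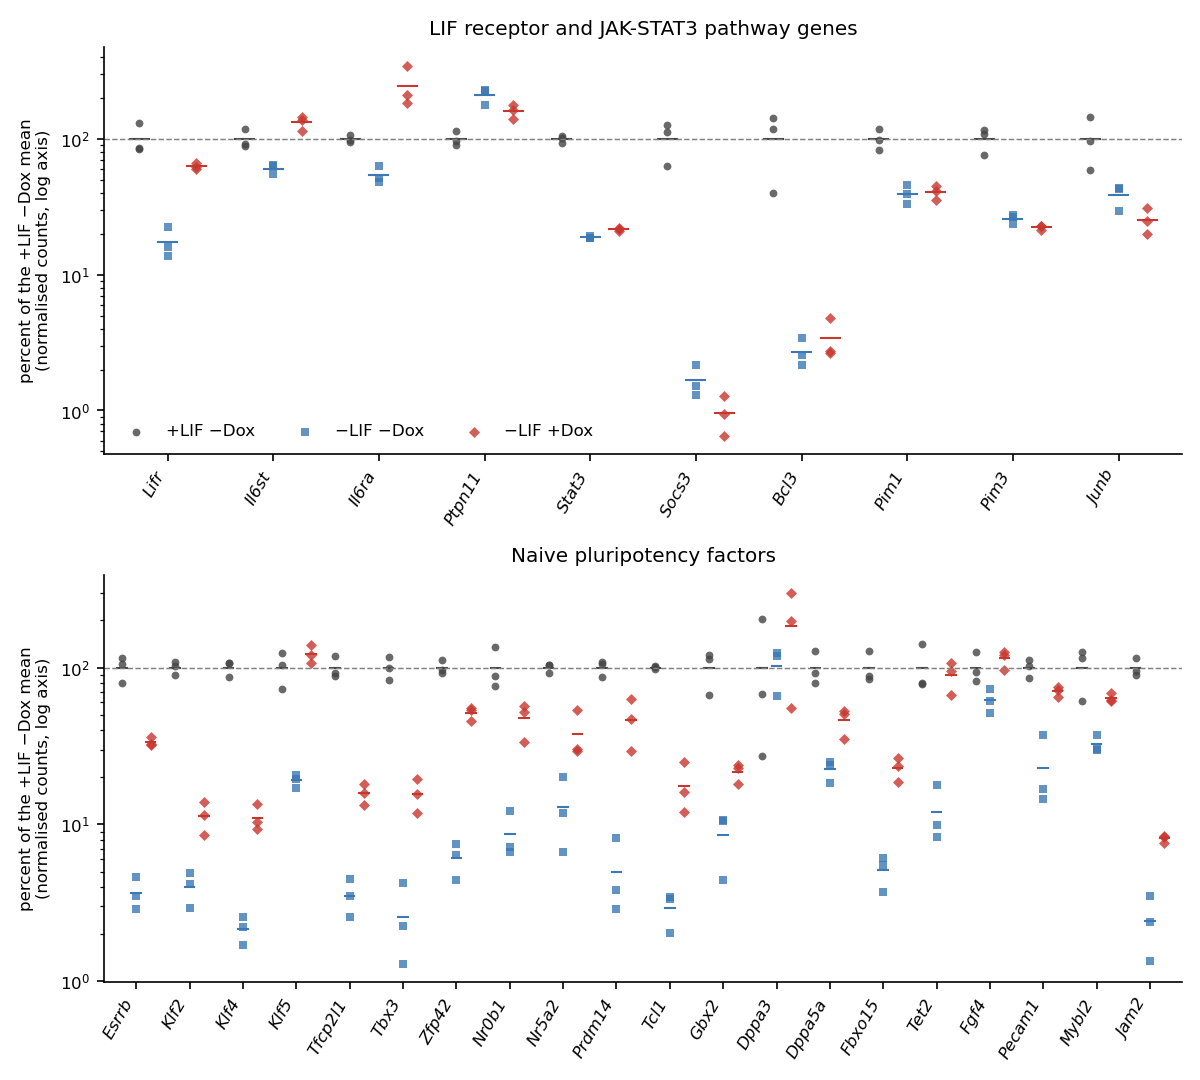
Each point is 1 library, as a percentage of the mean of the +LIF −Dox libraries on a log axis, for genes of the LIF pathway (top) and naive pluripotency factors (bottom), with bars at the means. Socs3, Bcl3, Stat3, Pim1 and Pim3 lie far below 100% without LIF both with and without Dox, while most naive factors with Dox lie between the other groups and Klf5, Tet2 and Fgf4 reach the range of the LIF libraries.

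Among the core ES cell genes, which both naive and formative cells express, 3 were lower and 2 higher of 14 tested, with a median of 0.01 (4 higher and 3 lower with the offset for GC content and length, and 5 higher and 3 lower with a replicate block for the clone as well). Without the C1 library of +LIF −Dox 3 were higher and 4 lower. The median was −0.31 without that library and 0.22 with the offset. Of all genes 28.1% differed. Pou5f1 (Oct4) had 22107, 38045 and 37806 normalised counts with LIF and 20598, 18531 and 20578 with Nanog (61.0% of the LIF level, −0.70 ± 0.20, adjusted p = 0.0256). The C1 library with LIF lay much nearer to the Nanog libraries than the C2 libraries did. Its call was lost in 5 of 11 fits without 1 library (adjusted p up to 0.112, without C1-1b of −LIF +Dox) and with the offset for GC content and length. Sox2, its partner, had 13782, 11531 and 10742 and 8712, 8433 and 9074 (interval −0.87 to −0.03, adjusted p = 0.0979). Tdgf1 (Cripto), a co-receptor of Nodal, had 34631, 29347 and 27104 with LIF and 8899.7, 10219 and 6914 with Nanog, and was as low with Dox (28.6% of the LIF level) as without it (28.1%). Sall4 was at 61.7% of the LIF level. L1td1, an RNA-binding protein gene, had overlapping groups at 105%.

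Rif1, a regulator of replication timing, went the other way. It had 20259.5, 8671 and 8631 normalised counts with LIF and 26514, 25955 and 23575 with Nanog, with the C1 library of +LIF −Dox close to the Nanog libraries (1.02 ± 0.28, adjusted p = 0.0214). Its call was lost without either C2 library of +LIF −Dox (adjusted p of 0.0747 and 0.0793), and that of Sall4 without C1-1 of −LIF +Dox (0.0698).

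Formative genes remained above the LIF level. Of 15 formative and primed factors 13 were higher with Nanog in place of LIF and none was lower, with a median log2 fold change of 2.07, where 15% of all genes were higher (14 higher without the C1 library of +LIF −Dox). Their sum was 13513 to 18104 normalised counts with LIF, 66570 to 74881 with Nanog and 130396 to 149119.9 without LIF and Dox. Dox without LIF lowered 8 of the 15. Otx2, a homeobox factor that drives the exit from the naive state, had 908, 704 and 740.3 normalised counts with LIF, 2248, 2484 and 2619.5 with Nanog and 4254, 3534 and 4927 without LIF and Dox. It stood at 313% of the LIF level with Nanog (1.65 ± 0.22, adjusted p = 0.000399). The Fgf ligand Fgf5 had 13.4, 0 and 1.25 with LIF and 422, 529.8 and 866 with Nanog, against 2558, 2528 and 2508 without LIF and Dox, and it fell with Dox without LIF (−2.03 ± 0.45, adjusted p = 0.0231). The POU factor Pou3f1 (Oct6) had 126, 116 and 104 with LIF and 811, 1118 and 1387 with Nanog (3.28 ± 0.25, adjusted p = 1.77e-05). Of the Nanog libraries, the C2 library was the highest for both.

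Dnmt3a and Dnmt3b were part of this group, and no other Dnmt gene tested was called. Dnmt3b, which methylates DNA anew, had 6129, 3039 and 2802 normalised counts with LIF, 32300.2, 28834 and 31976 with Nanog and 69072, 61951 and 73045 without LIF and Dox, a 7.78-fold excess over LIF (2.96 ± 0.28, adjusted p = 5.27e-05). Dnmt3a was at 238% of the LIF level and Tet3 at 212%, and no enzyme among the 9 tested was called lower (5 were higher without the C1 library of +LIF −Dox, and 4 higher and 2 lower with the offset for GC content and length and a replicate block for the clone). Zic2 (3.54 ± 0.28, 1142% of the LIF level) and Zic5 (527%), zinc finger factors, Lef1 (416%), a partner of β-catenin, Sall2 (904%), the kinase Pim2 (1146%), the secreted Wnt modulator Sfrp2 (230.3%) and the Ets factor Etv1 (191%) were higher too. Sox3 (231% of the LIF level against 1405% without Dox) was called as well, but not in 2 fits without 1 library, with an adjusted p up to 0.0737 without C1-1b of −LIF +Dox. The levels with Nanog of the factors Tead2 (2779, 2879 and 2333 against 1700.3, 2845 and 2417 with LIF) and Foxp1 (2101, 2382 and 2842 against 2137, 1840.5 and 1607) overlapped those with LIF.

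The genes past the LIF level were few. Of the 88 LIF-dependent genes that were higher with Nanog than with LIF, 38 rose with Dox in the absence of LIF and none fell. Without Dox in the same cells 35 were below the LIF level and 53 above it (15 and 12 of them past the test of withdrawal there). Of all 3841 LIF-dependent genes 481 rose with Dox and 4 fell, and 264 lay above the LIF level without Dox. The 88 were chosen as high in −LIF +Dox and low in +LIF −Dox, and each of these further comparisons reuses 1 of these groups. A rise with Dox, and a level above LIF without it, are thus favoured by the choice. Of the 88 genes, 42 differed by less than 1 on the log2 scale. Their median GC content was 47.1% and their median exonic length 4961 bases, against 49.5% and 3124 bases for all LIF-dependent genes, a difference whose part in the result was not tested. With the offset for GC content and length 74 of the 99 genes past the LIF level were called in the same direction, with a replicate block for the clone 93 and without the C1 library of +LIF −Dox 95. Without the C2-1 or C2-2 library of +LIF −Dox 39 and 38 of them remained, and without C1-1 or C1-1b of −LIF +Dox 53 and 58. The total number past the LIF level was 404 without the C1 library of +LIF −Dox and 40 without either of the C2 libraries.

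Several of these genes had a lower level without LIF and Dox than with LIF, and their highest level in a condition with Dox. Pla2g4e, a cytosolic phospholipase gene, had 139, 88.8 and 101 normalised counts with LIF, 417, 353 and 232 with Nanog in its place, 22.0, 27.1 and 19.7 without LIF and Dox and 752 and 518 with LIF and Dox. It thus lay at 304% of the LIF level (1.63 ± 0.28, adjusted p = 0.00187) and at 20.9% without Dox. Hoxa13, a posterior Hox gene, had 16.1, 10.1 and 8.74 with LIF and 132, 73.7 and 127 with Nanog, with 435 and 167 when LIF and Dox were both present and a mean of 1.52 without either. The log2 fold change was 3.33 ± 0.48 (adjusted p = 0.00063), and no library overlapped. Adipoq, the gene of the hormone adiponectin, had 2.68, 1.68 and 6.24 with LIF, 105, 135 and 79.5 with Nanog and 117 and 44.9 with LIF and Dox (4.76 ± 0.82, adjusted p = 0.00181). Pirt, a modulator of TRPV1 channels, and Shisa2, which restrains Wnt and Fgf receptors, were at 278% and 287% of the LIF level and at 34.9% and 58.0% without Dox. The call of Pirt was lost without C2-1 of +LIF −Dox and without C1-1 of −LIF +Dox (adjusted p = 0.0532 and 0.0545).

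A second kind lay above the LIF level already without Dox in the Nanog SunTag cells, although it had fallen after withdrawal in the Nanog/Otx SunTag cells. The choice of genes favours this pattern too, since the same +LIF −Dox libraries are used. Lnpep, an aminopeptidase gene, had 501, 213 and 166 normalised counts with LIF, 1210.4, 1445 and 1255 with Nanog and 861, 1176 and 607 without LIF and Dox. Prdm10, a zinc finger factor, had 292, 196 and 194, 634, 743 and 529.5 and 527, 659 and 513. Neither passed the test of Dox without LIF (adjusted p = 0.446 and 0.738). The protocadherin gene Fat2 was at 353% of the LIF level with Nanog and at 127% without Dox, and rose with Dox (1.50 ± 0.33, adjusted p = 0.0234).

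Of the 11 LIF-restrained genes that ended below the LIF level, 7 had groups that did not overlap and at least 100 normalised counts on average in the higher one. Of all 15624 genes tested 5059 met the same rule, and the 11 were already chosen as called, which favours groups that do not overlap. Igfbp4, a binding protein of insulin-like growth factors, had 214, 243 and 207 normalised counts with LIF and 90.7, 72.9 and 140.1 with Nanog, against 238, 207 and 247 without LIF and Dox (−1.12 ± 0.25, adjusted p = 0.0082). Dox lowered it in the absence of LIF (−1.16 ± 0.25, adjusted p = 0.0218). Mkrn1, a ubiquitin ligase gene, had 25770.2, 22306 and 21612 and 16382, 15999 and 13419 (65.7% of the LIF level). Ddit4, an inhibitor of mTORC1, was at 63.8% of the LIF level, with a call that was lost in 6 of 11 fits without 1 library (adjusted p up to 0.123, without C1-1b of −LIF +Dox) and with the offset for GC content and length (0.341).

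**Figure D3:**
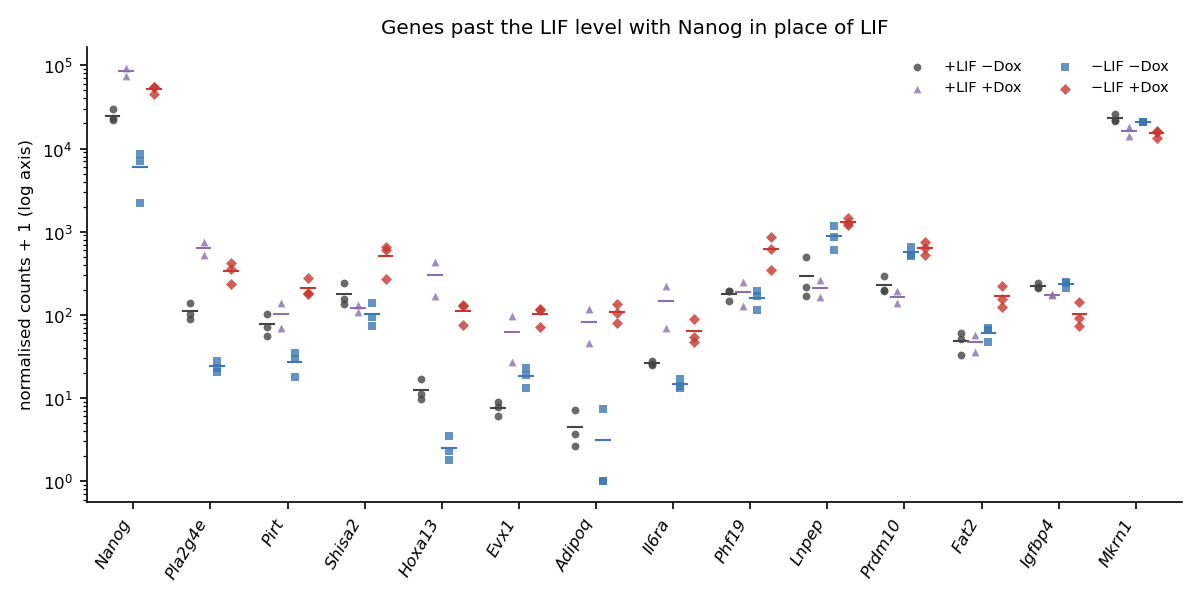
Normalised counts plus 1 on a log axis for each library of the 4 conditions of Nanog SunTag cells, with bars at the means, for Nanog and 13 genes past the LIF level or discussed beside them. Pla2g4e, Hoxa13, Evx1, Adipoq and Il6ra are high in both conditions with Dox, Lnpep and Prdm10 in both conditions without LIF, and Igfbp4 and Mkrn1 are lowest in −LIF +Dox.

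Subunits of PRC2, the complex that trimethylates lysine 27 of histone H3, were in part lower. Of 11 tested 4 were lower and 1 was higher, with a median of −0.20, where 13.1% of all genes were lower and 15% higher. Eed, which binds the mark, had 12379, 7758 and 8399.7 normalised counts with LIF and 4079, 3959.8 and 4125 with Nanog (−1.22 ± 0.18, adjusted p = 0.000753), and the catalytic subunit Ezh2 was at 66.7% of the LIF level, Rbbp7 at 68.9% and Jarid2 at 71.0%. Phf19, an accessory subunit that helps to bring the complex to chromatin, had 147, 193 and 189.8 with LIF, 625, 874 and 349.7 with Nanog and 168, 191 and 112 without LIF and Dox. It was the subunit above the LIF level, at 349% (1.81 ± 0.35, adjusted p = 0.00374), and the one that Dox raised without LIF (2.00 ± 0.35, adjusted p = 0.00789). The C1 library with LIF was the highest for Eed, Ezh2, Rbbp7 and Jarid2. Without it 2 subunits were lower and 3 higher, and the calls of Rbbp7 (adjusted p = 0.083) and Jarid2 (0.0619) were lost. With the offset for GC content and length 7 were lower and 1 was higher. The call of Ezh2 was lost without C1-1b or C2-2 of −LIF +Dox (0.0788 and 0.0616).

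Signalling genes moved in both directions. In the FGF and ERK list 8 of 17 tested genes were higher and 3 lower (6 lower without the C1 library of +LIF −Dox), where 28.1% of all genes differed in either direction. Of this list, Dox without LIF raised Fgf4 and lowered Fgf5 and Dusp6. ERK feedback genes split, with the phosphatases Dusp6 (171% of the LIF level) and Dusp4 (286%) and the inhibitor Spry1 (184%) higher and its relatives Spry2 and Spry4 lower. Spry2 had 3053, 2298 and 2639 normalised counts with LIF and 900.0, 1045 and 956 with Nanog (−1.45 ± 0.19, adjusted p = 0.000391), and Spry4 5251, 4204 and 5034 and 2282, 2566 and 2769.5 (−0.92 ± 0.18, adjusted p = 0.00374). The ligand Fgf15 was at 357% of the LIF level, and the receptors Fgfr1 and Fgfr2 at 149% and 243%. Etv5 (127%) and the immediate early gene Egr1 (42.7%), both targets of ERK signalling, passed the test in opposite directions. The calls of Fgfr1, Fgfr2, Etv5 and Egr1 were each lost in at least 3 fits without 1 library, with adjusted p up to 0.123, 0.0794, 0.126 and 0.154.

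In the list of Nodal, BMP and Id genes 4 of 14 were higher and 3 lower, where 15% of all genes were higher and 13.1% lower. The ligands Inhbb, Nodal and Bmp4 were lower, and the other ligands of the list were not called. Inhbb, the βB subunit of activin and inhibin, had 2032, 4576 and 4167 normalised counts with LIF, 238, 240.0 and 483 with Nanog and 4.89, 31.0 and 56.5 without LIF and Dox, and ended at 8.92% of the LIF level (−3.47 ± 0.54, adjusted p = 0.00106). Nodal (42.4%) and Bmp4 (46.5%) fell less. Of this list, Dox without LIF raised Bmp4 and Inhbb and lowered Id1 and Id2. The receptors Acvr2b (24.1, 62.0 and 54.9 with LIF and 163, 191 and 149 with Nanog) and Bmpr1a (208% of the LIF level) and the BMP targets Id2 (240.4%) and Id3 (297%) were higher. The call of Id3 was lost without C2-2 of +LIF −Dox or C2-2 of −LIF +Dox (adjusted p = 0.0547 and 0.0606).

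Of 15 Wnt pathway genes tested 7 were higher and 2 lower, where 15% of all genes were higher and 13.1% lower. Of this list, Dox without LIF raised Notum and lowered Tcf7, Nkd2, Fzd2 and Fzd7. Of the nuclear effectors Tcf7l1 (777, 1699.7 and 1194 normalised counts with LIF and 2712, 3223 and 3138 with Nanog, 1.32 ± 0.22, adjusted p = 0.00162), Tcf7 (147% of the LIF level) and Lef1 were higher and the remaining one of the list was not called. The feedback gene Axin2 was higher (209%), while other negative feedback genes of the list were not called or, as Dkk1, lower. The receptors split, with Fzd2 at 417% and Fzd5 at 16.1% of the LIF level. Fzd5 had 3652, 4826 and 5357 with LIF, 591, 639 and 1000.3 with Nanog and 679.9, 708 and 1056 without LIF and Dox, so that it was as low with Dox as without. The ligand Wnt8a and the receptor Lgr5 had at most a few counts in any library with LIF and 15, 27.4 and 10.8 and 16.3, 24.0 and 20.8 with Nanog, and the secreted antagonist Dkk1 had 50.9, 48.6 and 23.7 and 7.10, 8.57 and 6.33. The calls of Axin2 and Wnt8a were lost in at least 2 fits without 1 library, with adjusted p up to 0.0669 and 0.0706.

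**Figure D4:**
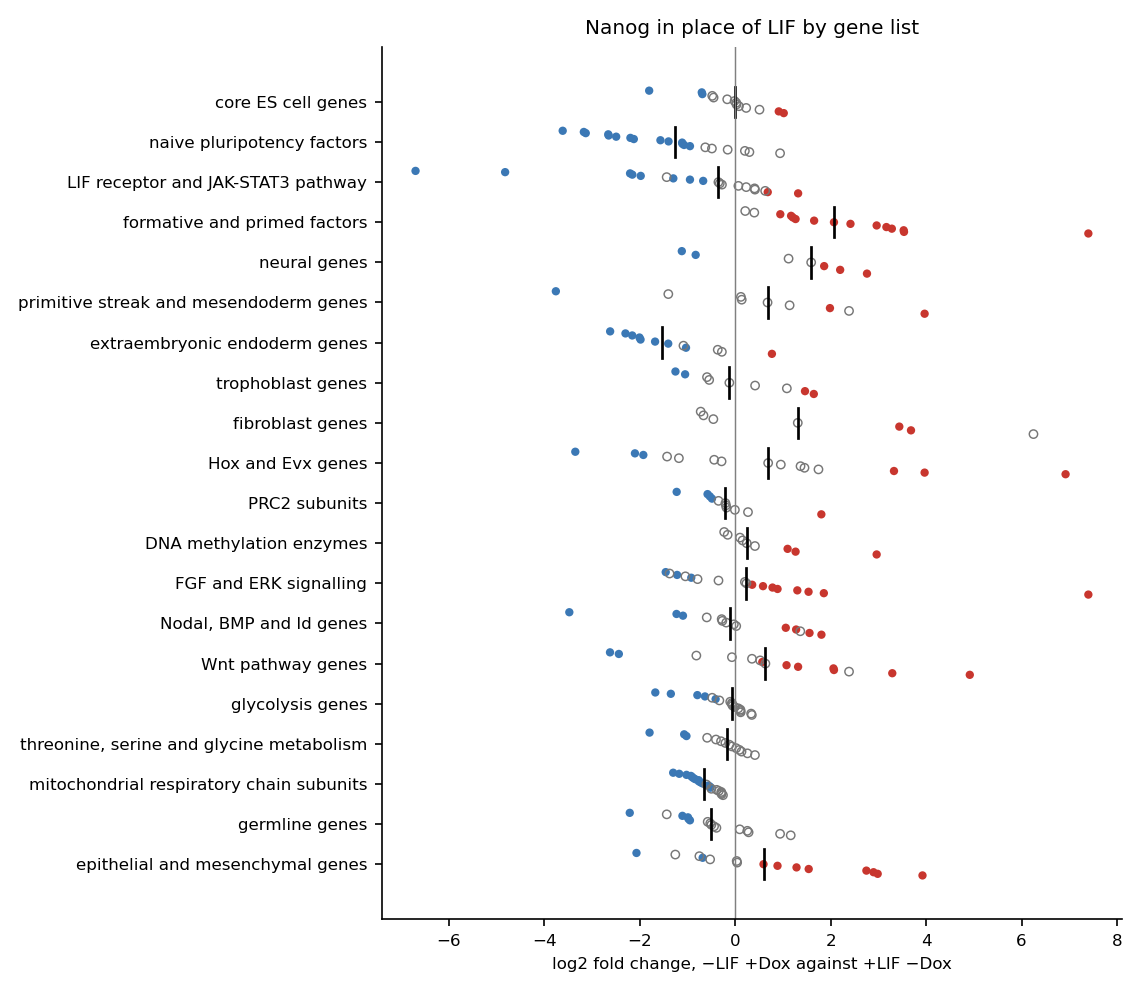
Log2 fold changes of −LIF +Dox against +LIF −Dox for the tested genes of 20 lists, with filled points for genes past the test (red higher, blue lower), open points for the others and a bar at the median of each list. Naive factors, extraembryonic endoderm genes and respiratory chain subunits lie mostly to the left, formative factors to the right, and the remaining lists are less one-sided.

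Genes of other cell types were read in bulk RNA, in which fewer cells of a type and less RNA per cell cannot be told apart. Extraembryonic endoderm genes were lower with Nanog in place of LIF. Of 12 tested 8 were lower and 1 higher, with a median of −1.54, where 13.1% of all genes were lower and 15% higher. Their summed level was 13662 to 20443 normalised counts with LIF, 10497 to 11385 with Nanog and 11988 to 14268 without LIF and Dox. Gata6, a founding factor of primitive endoderm, had 169, 199 and 61.2 with LIF and 29.2, 23.1 and 15.4 with Nanog (−2.62 ± 0.55, adjusted p = 0.0055), and Gata4 102, 144 and 63.7 and 37.2, 36.0 and 21.7 (−1.68 ± 0.41, adjusted p = 0.0116). The C2-2 library with LIF was the lowest of its group for both. The nuclear receptor Hnf4a was at 20.0% of the LIF level, and was the member that Dox raised without LIF (1.44 ± 0.33, adjusted p = 0.0282). The basement membrane genes Lama1 (3481, 3381 and 2186 and 832, 615 and 569, −2.15 ± 0.22, adjusted p = 8.97e-05), Sparc (37.5% of the LIF level) and Col4a1 (48.5%) were lower, and Lamb1 (169.5%) was higher. Pdgfra (24.7%) and Sox17 (25.8%) were lower as well. Gata4, Sox17, Pdgfra and Col4a1 lost the call in at least 1 fit without 1 library, with adjusted p up to 0.0532, 0.106, 0.0832 and 0.171. Afp was at 0 in all libraries with Nanog and Ttr in all with LIF.

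Neural genes, of which 7 of the 12 in the tables were tested, showed no common direction, with 3 higher and 2 lower. Of all genes 15% were higher and 13.1% lower. The summed level of the neural genes was 2091 to 4065 normalised counts with LIF and 2417 to 3057 with Nanog. Neurog2, a defining factor of neurogenesis, was at 0 in all 6 libraries. Dcx, Pou3f2 and Fabp7 were at 0 in all libraries with LIF, but not in all with Nanog. Nes, the intermediate filament of neural progenitors, had 217, 203 and 142 with LIF, 574, 826 and 622 with Nanog and 2868, 3220.0 and 1069 without LIF and Dox, and Dox lowered it without LIF (−1.80 ± 0.34, adjusted p = 0.0113). Sox11, a factor of neural differentiation, had 42.8, 53.6 and 40.0 and 183, 166 and 273 (2.20 ± 0.32, adjusted p = 0.000658). Pax6, a neuroectoderm factor, had 129, 23.5 and 20.0 and 257, 634 and 193, varying widely in both conditions, and its call was lost in 3 fits without 1 library (adjusted p up to 0.108). Tubb3 (45.6% of the LIF level) and the adhesion molecule Ncam1 (55.9%) were lower, Tubb3 with overlapping groups and an adjusted p of 0.0543 with a replicate block for the clone.

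Of primitive streak and mesendoderm genes 9 of 15 were tested, and 2 were higher and 1 lower (2 lower without the C1 library of +LIF −Dox), where 28.1% of all genes differed. Eomes, a T-box factor of the streak, had 147, 161 and 72.4 normalised counts with LIF, 469.6, 617 and 396 with Nanog, 363, 551 and 360.2 without LIF and Dox and 677 and 447 with LIF and Dox, so that it was lowest where neither change had been made. Evx1, a homeobox gene of the posterior streak, had 8.03, 6.70 and 4.99 with LIF and 114, 117 and 69.6 with Nanog (3.97 ± 0.57, adjusted p = 0.000625), and rose with Dox without LIF (2.56 ± 0.48, adjusted p = 0.0106). Cdx1, a caudal factor, fell from 5.36, 67.0 and 47.4 to 5.01, 1.71 and 0.904. The sum of this list was 270 to 434 normalised counts with LIF, 670 to 982 with Nanog and 670 to 845 without LIF and Dox.

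Trophoblast genes had like sums in the conditions (1802 to 2850 normalised counts with LIF and 1972 to 2088 with Nanog). Of 9 tested 2 were higher and 2 lower, where 15% of all genes were higher and 13.1% lower. The simple epithelial keratins Krt8 (126, 191 and 137 with LIF and 463, 413 and 369 with Nanog, 1.46 ± 0.20, adjusted p = 0.000417) and Krt18 (314% of the LIF level) were higher. Tfap2c (41.7%), an AP-2 factor also expressed in naive ES cells, and Ascl2 (48.4%) were lower, and Ascl2 lost the call in 5 fits without 1 library (adjusted p up to 0.112, without C1-1 of −LIF +Dox). Of 7 fibroblast genes tested the contractile genes Acta2 (2.68, 13.4 and 16.2 and 71.4, 117 and 194) and Tagln (24.1, 36.9 and 23.7 and 234, 355 and 498, 3.68 ± 0.36, adjusted p = 5.88e-05) were higher and none was lower. Of all genes 15% were higher. The summed level of the fibroblast genes was 273 to 726 normalised counts with LIF, 658 to 1139 with Nanog and 980 to 1217 without LIF and Dox. Lum was at 0 in all libraries of these conditions. Dcn and Postn were at 0 in all libraries with LIF, but not in all with Nanog.

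Epithelial junction genes were higher. In the list of 15 epithelial and mesenchymal genes 8 were higher and 2 lower (4 lower without the C1 library of +LIF −Dox), against 15% and 13.1% of all genes. Among the higher, Cdh1 (E-cadherin) had 10619.8, 8589 and 8607 normalised counts with LIF and 14050.0, 13206 and 14497 with Nanog (0.59 ± 0.15, adjusted p = 0.0142), and Cldn6, a claudin of early embryonic epithelia, 602, 293 and 397 and 3908, 3585 and 2646 (2.99 ± 0.38, adjusted p = 0.000289). Cldn7 (713% of the LIF level), Cldn4 (289%), Ocln (237%) and Epcam (184%) followed. The splicing factor Esrp1, which sets epithelial exons, had 782, 88.8 and 145 with LIF and 5273, 5850.1 and 3876 with Nanog, with the C1 library far above the C2 libraries in LIF. Cdh2 (N-cadherin) was higher too (647% of the LIF level), while the mesenchymal factor Zeb1 (383, 605 and 582 and 98.6, 123 and 151, −2.07 ± 0.26, adjusted p = 0.000263) and the matrix gene Fn1 (61.8%) were lower. Cdh1, Cldn4, Ocln, Epcam and Fn1 lost the call in at least 2 fits without 1 library, with adjusted p up to 0.0597, 0.0653, 0.0774, 0.15 and 0.131. In the test of Dox without LIF Zeb1 rose, and no other member of the list passed.

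Subunits of the mitochondrial respiratory chain stood below the LIF level together. Of 22 tested 14 were lower and none was higher, where 13.1% of all genes were lower. The median log2 fold change was −0.64 against −0.04 for all genes, and with the offset for GC content and length 9 were lower. Ndufb8 of complex I had 2669.7, 3584 and 3898 normalised counts with LIF and 1674, 1760.0 and 1948 with Nanog (−0.90 ± 0.17, adjusted p = 0.00343), and Uqcrc1 of complex III 3703, 6053 and 5838 and 2939, 2720.2 and 2769 (−0.87 ± 0.18, adjusted p = 0.00549). Atp5b of the ATP synthase was at 67.4% of the LIF level, Sdhc of complex II at 48.9% and Cox5a of complex IV at 44.3%. Without Dox these 5 stood at between 33.1% and 68.1% of the LIF level, and none of the 22 passed the test of Dox without LIF. Leaving out 1 library ended the calls of Sdhc (adjusted p up to 0.08) and Atp5b (0.0501), and the offset that of Cox5a (0.0601).

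By the rule for the 15 largest changes in each direction, the lower genes with known functions included Mapt, the microtubule protein tau (1232, 1775 and 1576 normalised counts with LIF and 34.3, 42.0 and 48.8 with Nanog, −5.19 ± 0.28), the divalent metal transporter Slc11a1 (394, 612 and 698 and 13.4, 11.1 and 17.2, −5.34 ± 0.38) and the adenylate kinase Ak7 (849, 915 and 643 and 16.7, 18.0 and 36.1, −5.10 ± 0.33). Stra8, a gene of meiotic entry (3.06% of the LIF level), the histidine-degrading enzyme Hal (2.79%) and the protease inhibitor Spink3 (2.80%) belonged to the same group, with wide spreads in LIF. All of these were low without Dox too, between 1.11% and 4.22% of the LIF level.

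The higher genes fell into a pair of patterns. The receptor tyrosine kinase Ror1 had 10.7, 3.35 and 3.75 normalised counts with LIF, 290.4, 371 and 369.6 with Nanog and 407, 352 and 498 without LIF and Dox. The chemokine Cxcl12 had 64.3, 11.7 and 9.99, 597, 628 and 728 and 2434, 2311 and 2505, and the lysophospholipase Enpp2 91.0, 21.8 and 22.5, 2464, 1608 and 2529 and 6074, 4314 and 5326. These, together with Zfp608 and the sialyltransferase St6gal2, were above LIF without Dox as well. Col14a1, a fibril-associated collagen, had 10.7, 5.03 and 7.49 with LIF, 1354, 1598 and 501 with Nanog and 60.3, 177 and 16 without LIF and Dox. With the integrin Itga1 (24.1, 1.68 and 6.24, 920.0, 1089 and 469.9 and 75.7, 109.9 and 24.6) and the growth factor Igf1 (2.68, 6.70 and 0, 96.9, 119 and 86.7 and 0.814, 10.3 and 7.38) it was far higher with Dox than without (3.81 ± 0.70, 3.59 ± 0.64 and 4.14 ± 0.87, adjusted p = 0.00934, 0.00853 and 0.018). For Col14a1 and Itga1 the C2 library with Nanog was the lowest of the 3.

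Cells with both the Nanog and the Otx2 guide offer a second case of Nanog in place of LIF, in 7 libraries with their own controls. The difference between the guides in what replaces LIF was tested in 1 fit of all 26 SunTag libraries, and 1161 of 16210 genes (7.16%) passed, or 1876 with a replicate block for the clone. Without C1-1 of the Nanog +LIF −Dox libraries 3980 genes passed, without C2-1 or C2-2 of that condition 476 and 506, and without C1ON3-2 of the Nanog/Otx +LIF −Dox libraries 448. Otx2, the second target, had 1062, 1059 and 736 normalised counts with LIF and 7347, 7311, 6827 and 7206 with both activators and no LIF, and its log2 fold change with Nanog alone differed from this by −1.19 ± 0.26 (adjusted p = 0.00844), that is, it rose less over LIF with Nanog alone. Nanog had 20533, 18320.4 and 19586 with LIF and 48470.5, 42572, 35379 and 31697 with both activators, and its own difference between the guides was 0.09 ± 0.51 (adjusted p = 0.941). Of the 20 naive factors Klf5 and Tet2 differed. Klf5 had 2672, 2770.3 and 3199 with LIF and 1409.6, 2115, 2040.0 and 2156 with both activators, a log2 fold change of −0.57 against 0.30 with Nanog alone (difference 0.91 ± 0.25, adjusted p = 0.0284). Tet2 had 5040.3, 6470.1 and 5962 and 1512, 2719, 2362 and 2123, a log2 fold change of −1.41 against −0.16 (difference 1.31 ± 0.35, adjusted p = 0.0241). For Esrrb, with 19756, 17725 and 19744 and 4925, 5388, 5808 and 4914, the difference was 0.33 ± 0.19 with an interval of −0.06 to 0.73, and was not called (adjusted p = 0.3). Il6st (−0.51 with both activators against 0.42, difference 0.97 ± 0.20, adjusted p = 0.00706) was the member of the LIF pathway higher with Nanog alone. Pla2g4e had 130.1, 112 and 64.8 with LIF and 82.9, 162, 105 and 83.5 with both activators, a log2 fold change of 0.02 ± 0.34 against 1.63 with Nanog alone (difference 1.66 ± 0.46, adjusted p = 0.0292).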

How the data were processed

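RNA-seq libraries of polyadenylated RNA were stranded and sequenced single-end. Per the labels and the study's methods, the authors converted base calls with CASAVA 1.8, aligned reads to mm9 with STAR and obtained estimated counts per gene with RSEM, deposited as whole numbers. The second deposited table holds these estimated counts divided by 1 DESeq2 size factor per library, a signal called normalised counts here. STAR and RSEM versions are not given in the sources used here. Normalised counts show levels of single libraries only. They are not divided by transcript length, so levels of different genes were not compared.

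The 11 Nanog SunTag libraries were fitted with 1 mean per condition in edgeR 4.0.16 (R 4.3.3), by TMM normalisation and the quasi-likelihood test on the estimated counts, with no clone term, as in the study's model. All 35 columns of the tables, each with 37620 genes, were matched to samples, and 26 were fitted here, 11 with the Nanog guide and 15 with both guides. A gene was tested where all libraries of a condition reached 10 normalised counts. A call is an adjusted p below 0.05 over all genes tested. LIF-dependent and LIF-restrained genes came from a fit of the 15 Nanog/Otx SunTag libraries, and the difference between the guides from a fit of all 26. Intervals are at 95% and unadjusted, and p-values measure the spread between libraries, which may be technical where cultures were shared. The tests were tested on simulated data. The C1-1 and C1-1b libraries of −LIF +Dox share a number in their sample titles, and are called same-numbered here. The column names of the deposited counts number them differently. They differed by more than sampling noise and were kept apart.

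Libraries of the same clone deviated alike. The deviations of −LIF +Dox libraries from their condition means correlated across genes with those of +LIF −Dox libraries of the same clone (mean r of 0.212, and each above 0.1). With those of the other clone the mean r was −0.18. The deviations within a condition sum to 0 for each gene, so these means of opposite sign are not independent. C1 had 1 library in +LIF −Dox, the one that stood apart. The clone was therefore also fitted as a replicate block. Other alternatives were DESeq2 1.42.0, its size factors in edgeR, other filters on low counts, the 6 libraries alone, the same-numbered libraries summed, each library left out, and offsets from splines of GC content and exonic length.

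Genes were named from 20 lists (317 of 321 symbols in the tables, the larger mean taken where a symbol had 2 identifiers), from the 15 largest changes in each direction and from the 12 largest each way past the LIF level, the last 2 only where the groups did not overlap and the higher averaged 100 normalised counts or more. The comparison and lists were chosen with earlier results of these data known. Reads of near-identical paralogues, such as Cldn6 and other claudins or the Hox genes, may be split by the counting. ChIP-seq and ATAC-seq data and the other RNA-seq libraries were not used here, and some genes that the rule would name are not reported here.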

Additional observations from a re-analysis of the deposited data

Results flagged for a closer look

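Results whose effect differed between the cells with the Nanog guide and those with both guides are listed first, as the log2 fold change with Nanog alone minus that with Nanog and Otx2, by the test of that difference. In all 1161 genes differed. Otx2 was lower with Nanog alone (−1.19). Of the pluripotency genes Rif1 (1.38), L1td1 (0.81), Klf5 (0.91) and Tet2 (1.31) were higher with Nanog alone. Of signalling genes Il6st (0.97) and Acvr2b (1.10) were higher and Tcf7 (−0.82) lower. Pax6 was higher with Nanog alone by 3.19, with a wide spread in both conditions of the Nanog SunTag cells. Of the largest changes Ror1 (2.71) and St6gal2 (2.28) were higher.

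Of the genes past the LIF level Pla2g4e (1.66), Lnpep (2.53), Prdm10 (1.63) and Fat2 (2.03) were higher with Nanog alone, and Igfbp4 (−1.37), Ddit4 (−1.37) and Mkrn1 (−0.48) lower. Since these were chosen for a direction in the Nanog SunTag libraries opposite to that in the other cells, a difference of this sign is favoured by the choice.

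A single library stood apart in 1 result. Klf5 was at 1410 normalised counts in C1ON3-1 of the Nanog/Otx −LIF +Dox libraries, far from the other 3 of its group. About 1 group in 20 is expected to hold such a library by chance.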

How the results depend on the processing

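Of 161 genes named with a value, 150 were called, and none of these changed direction under any of 20 alternatives. The call of 115 was kept wherever they were tested in the fits that retained all libraries, and that of 103 also when each library was left out in turn. DESeq2 and its size factors in edgeR ended no call, while fitting the 6 libraries alone ended 15, summing the same-numbered C1 libraries 30 and the offset for GC content and length 14. A replicate block for the clone gave 5053 called genes in all, and changed no call of the named genes other than those of Il6ra and Tubb3.

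The 4386 genes called became 2894 with the C1-1 and C1-1b libraries of −LIF +Dox summed, and 2635 to 6756 when 1 library was left out. The 2897 genes short of the LIF level became 1940 to 3454 without 1 library. The 99 genes past it became 61 with the summed libraries, 169 with the offset and the clone as a replicate block together, and 40 to 404 without 1 library. With LIF-dependent and LIF-restrained genes taken from LIF withdrawal in the Nanog SunTag cells, whose libraries with LIF are those of the comparison itself, 18 genes were past the LIF level. The 1161 genes that differed between the guides became 1748 with DESeq2, 1876 with the block, 2183 with the offset and the block, and 448 to 3980 without 1 library. The cause of these shifts was not tested. Summing or leaving out libraries leaves fewer samples, and the number of genes called both fell and rose, to 6756 without the C1 library of +LIF −Dox. Foxp1 and Tet2, neither of them called, changed sign. Foxp1 stood at −0.0832 with the offset and −0.0134 with the offset and the block, and Tet2 ran from −0.31 to 0.22 without 1 library. The alternatives with the offset, and the counts of each list under the alternatives, were chosen after seeing the data.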

Other observations

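Of 18 glycolysis genes tested 5 were lower with Nanog in place of LIF and none was higher, with a median log2 fold change of −0.07, where 28.1% of all genes differed in either direction. With the offset for GC content and length 4 were lower and 1 higher, and with a replicate block for the clone as well 5 were lower and 3 higher. Hk2, a hexokinase, had 12569, 11306 and 10196 normalised counts with LIF and 6566, 7026 and 5988 with Nanog (−0.79 ± 0.14, adjusted p = 0.00233), and Hk1 was at 31.0% of the LIF level. Pfkp (64.1%), Ldhb (38.8%) and Pgam1 (74.9%) lost the call in at least 4 fits without 1 library, with adjusted p up to 0.128, 0.0769 and 0.119. With the offset the calls of Ldhb (adjusted p = 0.0561) and Pgam1 (log2 fold change −0.05, adjusted p = 0.783) were lost too. Of 14 genes of threonine, serine and glycine metabolism 3 were lower and none was higher, where 13.1% of all genes were lower. With the offset for GC content and length 1 was lower and 2 were higher of 13. Tdh, the threonine dehydrogenase that mouse ES cells depend on, had 2761, 3738 and 4411 normalised counts with LIF, 1175, 997 and 949.7 with Nanog and 529, 428 and 786 without LIF and Dox (−1.79 ± 0.23, adjusted p = 0.000317). Shmt2 (47.1% of the LIF level) and Psph (48.9%) lost the call in at least 2 fits without 1 library, with adjusted p up to 0.0978 and 0.078.

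Germline genes that serum-grown ES cells express were lower in part, 5 of 16 tested, with none higher, where 13.1% of all genes were lower and 15% higher (4 lower and 2 higher without the C1 library of +LIF −Dox, 3 lower and 1 higher with the offset, and 6 lower and 2 higher with the offset and a replicate block for the clone). They included Prdm14, described with the naive factors. Kit, the receptor of stem cell factor, had 2415, 2660.2 and 2261 normalised counts with LIF and 1227, 1163 and 1387 with Nanog (−0.95 ± 0.16, adjusted p = 0.00166), and rose with Dox without LIF (1.11 ± 0.16, adjusted p = 0.00249). Mael (50.0% of the LIF level), a gene of transposon silencing, Stk31 (50.4%) and Tex101 (21.3%) were called, but not in at least 2 fits without 1 library (adjusted p up to 0.0705, 0.153 and 0.125). Of 15 tested among 41 Hox and Evx genes 3 were higher and 3 lower, not far from the 15% and 13.1% of all genes. Beside Hoxa13, Evx1 and Hoxd4, which were higher (Hoxd4 with no count in any library with LIF), the lower members included Hoxc13 (23.1% of the LIF level) and Hoxb13 (5.36, 52.0 and 11.2 with LIF and 0.418, 2.57 and 4.52 with Nanog), whose call was lost in 3 fits without 1 library (adjusted p up to 0.139).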
